A study of Mus musculus with 24 samples.

Results

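The change in the heart's transcripts across the end of the light phase was measured by setting 4 arrays of hearts taken at ZT15 against 4 arrays of hearts taken at ZT11. These 8 arrays were chosen by the time point in their labels, from 24 arrays in all. Zeitgeber time (ZT) counts hours from lights-on, and with 12 h of light and 12 h of dark the lights went off between these times. Both groups were untreated male wild-type C57Bl/6 mice, 8 weeks old. The labels name the tissue as myocardium and call the 4 arrays of a time biological replicates, without saying how many animals went into each, so p-values measure the spread between these arrays, whatever its source. The remaining 16 arrays, of ZT03, ZT07, ZT19 and ZT23, had the same strain, sex and age and served to estimate the spread and to place the step within the day. The passing of the light, the hour of the internal clock, and the waking and feeding of a nocturnal animal all change between ZT11 and ZT15, and these cannot be told apart in this design.

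Heart cells carry a circadian clock of their own. CLOCK and BMAL1 (Arntl) bind E-box motifs and drive the period (Per), cryptochrome (Cry), Rev-erb (Nr1d), Ciart and Dbp genes, and the PER, CRY and CHRONO (Ciart) proteins then repress CLOCK and BMAL1. REV-ERB proteins repress Arntl, Npas2, Cry1 and Nfil3, and DBP and NFIL3 act in opposite ways on D-box motifs. Dusk is also when a mouse becomes active, its body temperature rises and it starts to eat. Heat shock factor responds to warmth and other protein stress by switching on chaperone genes.

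Each value is read as a log2 difference from that gene's own median over the 24 arrays. The files centre every probe set in this way, so they hold changes between arrays but no expression level, and the label of the tissue could not be checked against its marker genes. Values of 22180 genes were compared. ZT15 replicate 1 stood apart: the SD over all its probe sets was 0.171, the highest of the 24 arrays, its array weight was the lowest (0.498), and it lay farthest from its group's mean in 34.3% of genes. The median SD of a gene was 0.078 at ZT11 and 0.0862 at ZT15, or 0.0721 at ZT15 without that array. Results that rest on this array are given with and without it. In whole tissue, fewer cells of a type and less RNA per cell cannot be told apart.

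Across lights-off 25 genes rose (0.113% of all genes tested) and 20 fell (0.0902%), at an adjusted p below 0.05 in a limma fit of all 24 arrays with Benjamini-Hochberg adjustment. The folds were small. They ran from 1.17 to 1.96 among the genes that rose, with a median of 1.37, and from 1.20 to 1.77 among those that fell, with a median of 1.36. In all 45 genes the 4 values of ZT15 lay wholly on one side of the 4 of ZT11, which was so for 4.15% of all genes, 2.46% higher and 1.7% lower. Of the 25 that rose all were protein-coding, as were 18 of the 20 that fell. Among all genes the median difference was 0.0063, and 54.0% had a higher mean at ZT15. Unadjusted p-values lay below 0.05 in 8.01% of genes, 4.58% higher and 3.43% lower.

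These counts depended on the arrays. A fit of the 8 arrays alone called 5 genes (0.0225%), Hspa1a, Hspa1b, Ppp1r3b, Ppp1r3c and Rnasek, all higher at ZT15 and all among the 25. Its unadjusted p-values lay below 0.05 in 7.42% of genes. With 1 of the 8 arrays left out of the 24-array fit, between 8 and 29 genes were called higher and between 7 and 46 lower. Without ZT15 replicate 1 the call was kept by 18 of the 25 genes that rose and 13 of the 20 that fell. A call in every one of the 8 fits that left out 1 array was kept by 6 genes that rose, Hspa1a, Hsph1, Ppp1r3b, Nfil3, Zfp36l1 and Atxn2. It was kept by 7 that fell, Ciart, Dbp, Ppp1r10, Srsf5, Gstt2, 9530057J20Rik and Gm12295.

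**Figure D1:**
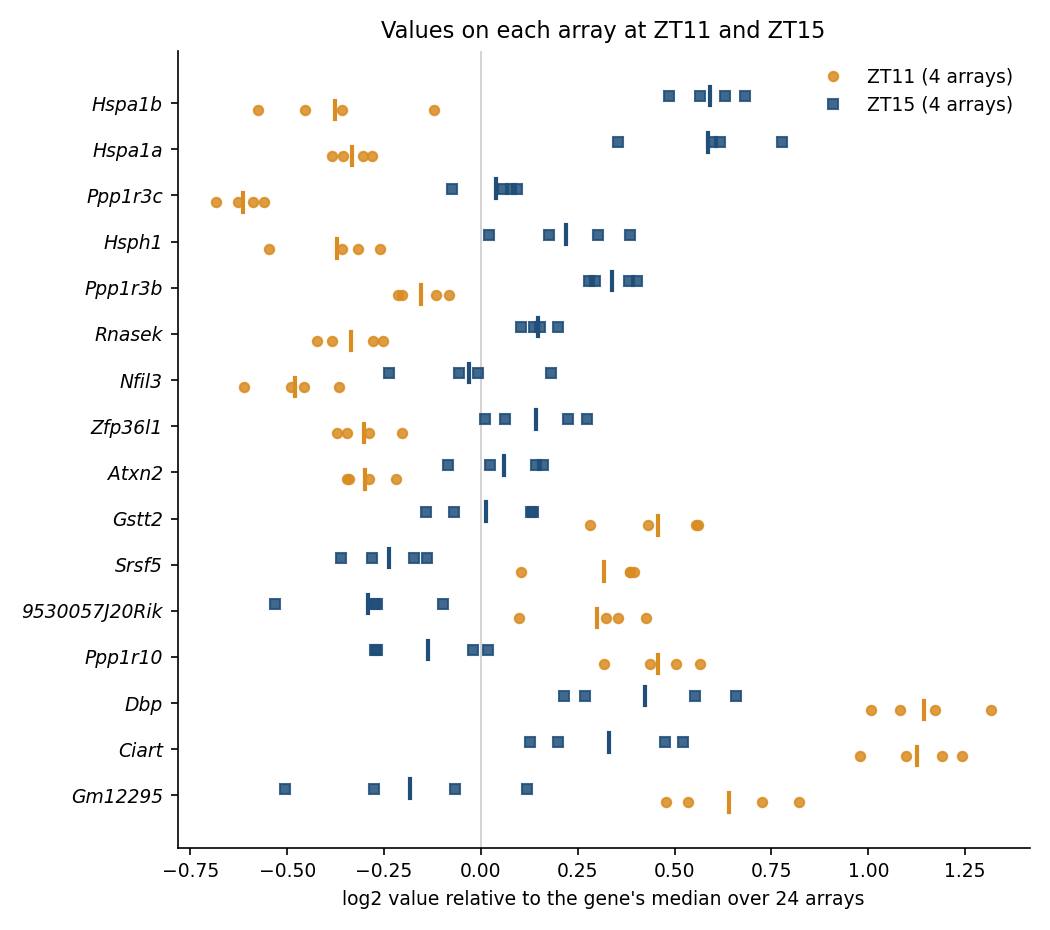
Log2 values of 16 genes on each of the 8 arrays, relative to the gene's median over 24 arrays. They are the genes called in the 8-array fit or in each fit that left out 1 array. Circles are ZT11, squares are ZT15, and vertical bars are means of 4 arrays. In each gene shown the circles and squares do not overlap, with Hspa1b and Hspa1a moving up the most and Gm12295, Ciart and Dbp moving down the most.

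**Figure D2:**
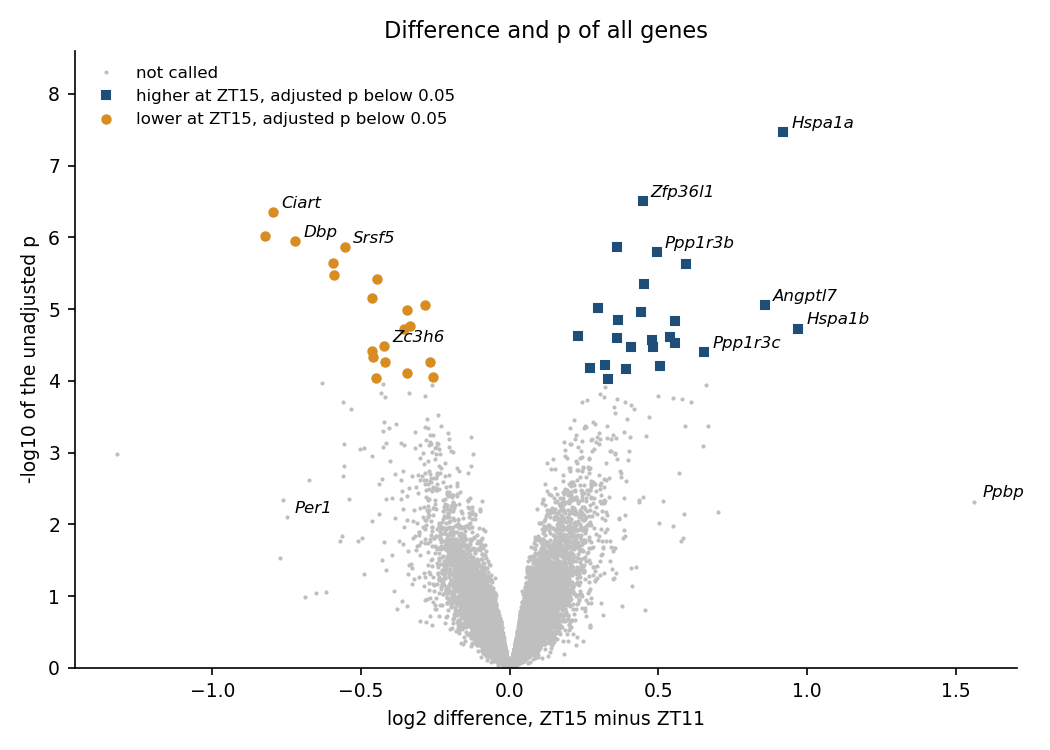
Difference of the group means (log2 ZT15 minus ZT11, horizontal) and -log10 of the unadjusted p (vertical) for all 22180 genes. Squares are the 25 genes called higher and circles the 20 called lower. Hspa1a has the smallest p, and Ppbp, at the far right, has a large difference without being called.

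Among genes with a known role, the largest falls were in clock genes. Ciart and Dbp fell, Nfil3 rose, and no other of the 19 measured clock genes passed the test. Ciart encodes CHRONO, a repressor of CLOCK and BMAL1. Its values were 0.98, 1.10, 1.24 and 1.19 at ZT11 and 0.13, 0.48, 0.52 and 0.20 at ZT15, so every array at ZT15 lay below every array at ZT11, with replicates 1 and 4 the lowest. The difference was -0.80 ± 0.11 (SE), or 1.74-fold (adjusted p = 0.00328). The 8-array fit gave an adjusted p of 0.0688. Dbp, an activator at D-boxes and a direct target of the clock, had 1.32, 1.08, 1.17 and 1.01 at ZT11 and 0.21, 0.27, 0.66 and 0.55 at ZT15. It too was lower on every array at ZT15, with a difference of -0.72 ± 0.11 (SE), or 1.65-fold (adjusted p = 0.00434), with an adjusted p of 0.129 from the 8 arrays. At ZT15 both genes were still above their own daily median.

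Promoter sequence is shown for 5 clock genes. These are the clock genes whose values did not overlap between ZT11 and ZT15 and that hold a searched motif near a start site. The start site used lies 3841 bases from the 5′ end of the RefSeq gene for Per1 and 1839 for Nfil3. That distance is 29 bases for Ciart, 0 for Cry1 and 42 for Per3. All stretches are RefSeq sequence of GRCm38.p6, written 5′ to 3′ on the gene's strand, which is the plus strand for Per1 and the minus strand for the others, and capitals mark the motif. Ciart holds 3 copies of the E-box CACGTG at chr3:95882258-95882368, Cry1 holds 1 at chr10:85185085-85185144, Per1 holds 1 at chr11:69098771-69098800, Per3 holds the D-box TTATGTAA in 2 copies at chr4:151044796-151044885, and Nfil3 holds the REV-ERB and ROR element TAGGTCA, in reverse as TGACCTA, at chr13:52981040-52981069.
Ciart: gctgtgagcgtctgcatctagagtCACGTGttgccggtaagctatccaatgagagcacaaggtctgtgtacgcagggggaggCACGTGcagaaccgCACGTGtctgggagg
Cry1: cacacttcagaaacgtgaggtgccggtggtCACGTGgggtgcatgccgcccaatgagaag
Per1: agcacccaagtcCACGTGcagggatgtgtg
Per3: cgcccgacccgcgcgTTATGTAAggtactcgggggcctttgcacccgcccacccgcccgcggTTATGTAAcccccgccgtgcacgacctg
Nfil3: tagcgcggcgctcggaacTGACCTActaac
A match is a run of letters and not a measured binding site. Counted on both strands over windows of equal length, in genes with 1 window in the table, the E-box was in 8.04% of 14336 genes tested, in 2 of the 14 that rose and in 2 of the 12 that fell. The D-box was in 0.942% and in none of either group. The REV-ERB and ROR element was in 2.25% of all, in 1 of the 14 and in 0 of the 12. The cAMP element TGACGTCA was in 2.42% of all, in 1 of the 14 and in 1 of the 12. The glucocorticoid element was in 0.474% of all and in none of the 14 or the 12.

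None of the measured period and cryptochrome genes passed the test. Per1, whose transcript responds to glucocorticoids as well as to the clock, had 0.90, 1.09, 1.22 and 1.33 at ZT11 and 0.50, 0.45, 0.62 and -0.027 at ZT15. The ZT15 arrays were all lower than the ZT11 arrays, but the difference of -0.75 ± 0.26 did not pass the test (adjusted p = 0.348). Its SE draws on the spread at every time sampled, not at ZT11 and ZT15 alone. The SD of Per1 was 0.19 at ZT11 and 0.28 at ZT15. It was 0.64 at ZT03, 0.44 at ZT07, 0.33 at ZT19 and 0.29 at ZT23. Per3 had 0.80, 1.03, 0.85 and 0.79 at ZT11 and 0.49, 0.43, 0.47 and 0.56 at ZT15, again without overlap, and a difference of -0.38 ± 0.091, adjusted p = 0.113. Cry1, the late member of the repressor arm, had a difference of the other sign. Its values were -0.14, -0.26, -0.094 and -0.058 at ZT11 and 0.21, 0.19, 0.20 and 0.29 at ZT15, all higher after lights-off, with a difference of 0.36 ± 0.080, adjusted p = 0.0668. Cry2 had -0.072 ± 0.092, adjusted p = 0.93, and its groups overlapped. Of the basic helix-loop-helix repressors, Bhlhe41 had -0.40 ± 0.11 (adjusted p = 0.172) and Bhlhe40 -0.045 ± 0.11 (adjusted p = 0.973), and both overlapped. Per2 was not analysed here.

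Nfil3, the D-box repressor, moved opposite to Dbp. Its values of -0.61, -0.46, -0.37 and -0.49 at ZT11 and 0.18, -0.058, -0.0070 and -0.24 at ZT15 were all higher after lights-off, most of all in replicate 1, and it rose by 0.45 ± 0.074 (SE), or 1.37-fold (adjusted p = 0.00772). The related activators Tef (0.031 ± 0.056, adjusted p = 0.959) and Hlf (-0.036 ± 0.085, adjusted p = 0.973) had overlapping values. Nr1d1, which encodes REV-ERBα, had 0.13, 0.32, 0.38 and 0.21 at ZT11 and -0.60, -0.29, -0.16 and -0.13 at ZT15. All the ZT15 arrays lay below 0 and all the ZT11 arrays above it. The difference of -0.56 ± 0.14 had an adjusted p of 0.136. Nr1d2 (REV-ERBβ) had 0.63, 0.58, 0.85 and 0.69 at ZT11 and 0.024, 0.38, 0.34 and 0.34 at ZT15 and a difference of -0.42 ± 0.11 (adjusted p = 0.136), with ZT15 replicate 1 well below the others. Rora (0.0083 ± 0.070, adjusted p = 0.993) and Rorb (0.064 ± 0.060, adjusted p = 0.894), which activate at the same element, had overlapping values.

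Of the clock activators, Arntl, Clock and Npas2 had their lowest 2 of 6 time means at ZT11 and ZT15, and Arntl2 did not have its lowest at ZT11. Arntl had -1.24, -1.01, -1.30 and -0.98 at ZT11 and -0.998, -0.93, -1.02 and -0.95 at ZT15, a difference of 0.16 ± 0.12, adjusted p = 0.841. Clock (0.14 ± 0.075, adjusted p = 0.683) and Npas2 (0.20 ± 0.12, adjusted p = 0.753) also had means at ZT15 slightly above those at ZT11, and Arntl2 had -0.071 ± 0.066, adjusted p = 0.889. None passed the test and all overlapped. Of the 13 measured kinases and ligases that modify clock proteins, none was called. Fbxw7 had 0.18 ± 0.078, adjusted p = 0.535, Usp2 -0.13 ± 0.071, adjusted p = 0.684, Csnk1e 0.11 ± 0.070, adjusted p = 0.782 and Csnk1a1 -0.059 ± 0.037, adjusted p = 0.773.

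Several clock genes were at a turning point of their 6 time means at the start of the step. Dbp, Ciart, Per1, Per3 and Nr1d2 had their highest mean at ZT11, and Nfil3, Arntl, Clock and Npas2 their lowest. The means at ZT03, ZT07, ZT11, ZT15, ZT19 and ZT23 were -1.05, 0.71, 1.14, 0.42, -0.35 and -1.08 for Dbp, so the step covered 32.3% of its daily range. Those of Ciart were -0.51, 0.43, 1.13, 0.33, -0.35 and -0.33, and its step covered 48.6%. For Per3 the step was 22.0% of a range of 1.74, and for Nr1d1 21.5% of a range of 2.58. Nfil3 went on rising through the night, with means of 0.033, -0.41, -0.48, -0.030, 0.14 and 0.39, and took 51.6% of its range here.

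**Figure D3:**
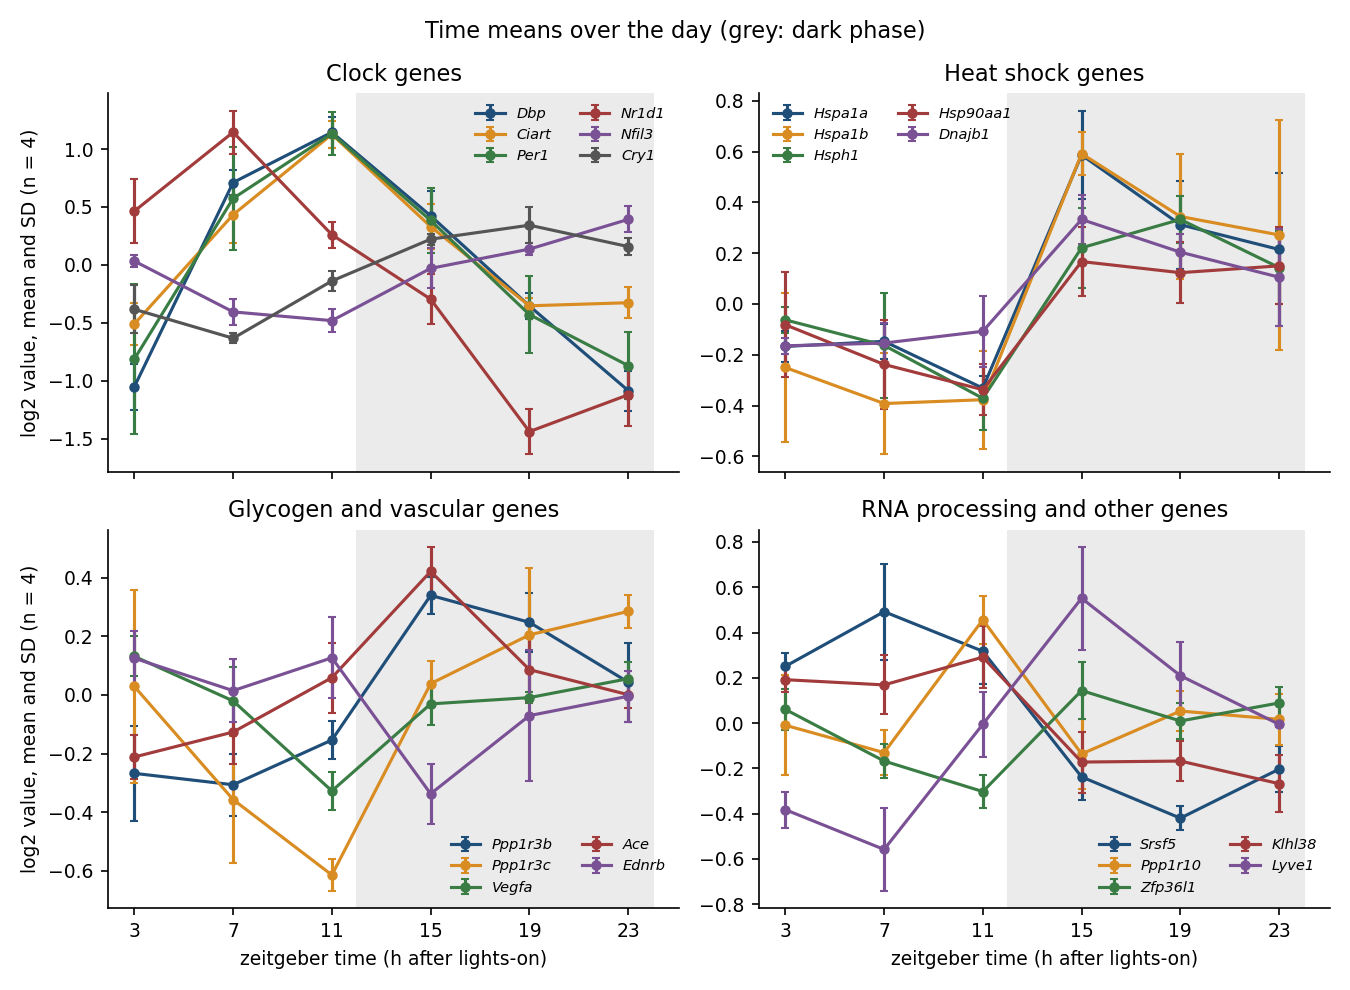
Means and SD (n = 4 arrays) of the log2 values at each of the 6 zeitgeber times, in hours after lights-on, with the dark phase in grey. The panels show clock genes, heat shock genes, glycogen and vascular genes, and RNA processing and other genes. Dbp, Ciart and Per1 have their highest mean at ZT11 and Nfil3 its lowest, while the 5 heat shock genes pass from their lower to their upper level in this interval.

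Chaperone genes of the cytosolic heat shock response gave rises and no fall. Of 25 measured, 5 rose and none fell: Hspa1a, Hspa1b, Hsph1, Dnajb1 and Hsp90aa1. Their median difference was 0.16, against 0.0063 over all genes, and 22 of the 25 had a higher mean at ZT15. Unadjusted p-values below 0.05 numbered 11, all higher, and 10 members did not overlap between the groups. Over all genes 0.113% were called higher and 54.0% had a higher mean. An unadjusted p below 0.05 with a higher mean was found in 4.58% of all genes, and higher values without overlap in 2.46%. The mean over the 25 genes on each array was -0.16, -0.10, -0.14 and -0.13 at ZT11 and 0.10, 0.17, 0.093 and 0.13 at ZT15, without overlap.

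Hspa1a and Hspa1b encode the inducible HSP70. Hspa1a had -0.31, -0.38, -0.28 and -0.36 at ZT11 and 0.78, 0.62, 0.36 and 0.60 at ZT15, with the ZT11 arrays close together and the ZT15 arrays spread, and rose by 0.92 ± 0.11 (SE), or 1.89-fold (adjusted p = 0.000767). Its adjusted p from the 8 arrays was 0.0139. Hspa1b had -0.36, -0.12, -0.58 and -0.45 at ZT11 and 0.57, 0.63, 0.68 and 0.49 at ZT15 and rose by 0.97 ± 0.18 (SE), or 1.96-fold (adjusted p = 0.0174), or an adjusted p of 0.0176 from the 8 arrays. The 2 genes are near-identical copies, so signal may be shared between their probe sets and they count as a pair whose split is uncertain. Hsph1 encodes HSP110, the exchange factor that recharges HSP70. It had -0.55, -0.26, -0.32 and -0.36 at ZT11 and 0.38, 0.30, 0.18 and 0.022 at ZT15 and rose by 0.59 ± 0.093 (SE), or 1.51-fold (adjusted p = 0.00521), most of all in replicates 1 and 2. A promoter window was held for 20 of the 25 genes that rose and 14 of the 20 that fell. Among these the heat shock element, 3 repeats of the letters GAA in alternating directions, was found near the start of Hsph1 alone, in reverse, at chr5:149636279-149636308 of GRCm38.p6 on the minus strand, bases 7 to 36 from a RefSeq start site.
Hsph1: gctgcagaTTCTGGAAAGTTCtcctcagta
Looser forms of the element were not searched. The exact form was in 0.488% of the 14336 genes with 1 window. It was in none of the 14 that rose or the 12 that fell. Hsph1, with more than 1 start site, is outside these counts.

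Dnajb1, the HSP40 partner that delivers substrates to HSP70, had -0.29, 0.048, -0.094 and -0.092 at ZT11 and 0.27, 0.48, 0.28 and 0.30 at ZT15. It rose by 0.44 ± 0.077 (SE), or 1.36-fold (adjusted p = 0.0129), and ZT15 replicate 2 was the highest. Hsp90aa1, the stress-inducible HSP90, had -0.30, -0.49, -0.27 and -0.29 at ZT11 and 0.35, 0.18, 0.042 and 0.095 at ZT15 and rose by 0.50 ± 0.10 (SE), or 1.42-fold (adjusted p = 0.0357). The next members by p did not pass. Bag3, a co-chaperone of the Z-disc, had a difference of 0.36 ± 0.082 (adjusted p = 0.0902), Hspb1 (HSP27) 0.30 ± 0.076 (adjusted p = 0.136), Chordc1 0.32 ± 0.088 (adjusted p = 0.179) and Hspa8, the constitutive HSP70, 0.37 ± 0.10 (adjusted p = 0.205). Cryab (αB-crystallin) had -0.020 ± 0.086, adjusted p = 0.984, Hspa4 -0.0068 ± 0.045, adjusted p = 0.99 and the factor Hsf2 -0.035 ± 0.086, adjusted p = 0.973. Without ZT15 replicate 1 the list again had 5 calls, with Chordc1 called (adjusted p = 0.0412) and Hsp90aa1 not (adjusted p = 0.106). Hsp90aa1 lost its call without any 1 of the 8 arrays (adjusted p up to 0.146), Hspa1b without ZT15 replicate 2 or 3 or ZT11 replicate 3 or 4 (adjusted p up to 0.0963) and Dnajb1 without ZT15 replicate 2 or ZT11 replicate 3 (adjusted p up to 0.0576). The 8-array fit called 2 of the 25.

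The folding genes of the endoplasmic reticulum were not called. Of 26 measured, 3 had an unadjusted p below 0.05 and a higher mean, where 4.58% of all genes did. The median was 0.047, or 0.028 without ZT15 replicate 1. Ppp1r15b had 0.13 ± 0.042, adjusted p = 0.324, Edem1 0.11 ± 0.041, adjusted p = 0.448, Atf6 0.19 ± 0.074, adjusted p = 0.452 and Dnajc3 0.17 ± 0.085, adjusted p = 0.656.

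Of 17 glycogen genes 2 rose, where 0.113% of all genes did. Both encode targeting subunits that bring protein phosphatase 1 to glycogen, where it activates glycogen synthase. Ppp1r3b had -0.12, -0.083, -0.21 and -0.20 at ZT11 and 0.40, 0.28, 0.29 and 0.38 at ZT15, 4 close values on each side, and rose by 0.49 ± 0.075 (SE), or 1.41-fold (adjusted p = 0.0045). Its 2 probe sets gave 0.71 (adjusted p = 0.00308) and 0.27 (adjusted p = 0.444). Ppp1r3c had -0.63, -0.56, -0.68 and -0.59 at ZT11 and -0.075, 0.058, 0.093 and 0.077 at ZT15, again tightly grouped, and rose by 0.65 ± 0.13 (SE), or 1.57-fold (adjusted p = 0.0261). In the 8-array fit the adjusted p was 0.0177 for Ppp1r3b and 0.00813 for Ppp1r3c. Ppp1r3c lost its call in the 24-array fit without ZT15 replicate 2, 3 or 4 or ZT11 replicate 2, 3 or 4 (adjusted p up to 0.104). Its promoter holds 1 E-box, in capitals, at chr19:36736675-36736734 of GRCm38.p6 on the minus strand, shown because it is the called glycogen gene with a searched motif.
Ppp1r3c: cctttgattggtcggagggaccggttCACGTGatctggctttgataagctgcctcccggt
The synthase itself, Gys1, had 0.047 ± 0.054 (adjusted p = 0.921), and the muscle phosphorylase Pygm 0.019 ± 0.036 (adjusted p = 0.96). The median of the list was 0.016, or 0.048 without ZT15 replicate 1. Epm2a (laforin) had -0.13 ± 0.065, adjusted p = 0.639 and Pygb -0.10 ± 0.064, adjusted p = 0.77.

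Genes of vascular signalling moved in both directions. Of 27 measured, Vegfa and Ace rose and Ednrb fell, where 0.113% of all genes rose and 0.0902% fell. The median was 0.084, or 0.036 without ZT15 replicate 1. Vegfa, the main growth factor for endothelial cells, had -0.33, -0.39, -0.24 and -0.35 at ZT11 and 0.054, -0.0022, -0.11 and -0.059 at ZT15 and rose by 0.30 ± 0.052 (SE), or 1.23-fold (adjusted p = 0.0126). Ace, the enzyme that makes angiotensin II, had -0.082, 0.18, 0.0051 and 0.13 at ZT11 and 0.38, 0.39, 0.55 and 0.37 at ZT15 and rose by 0.36 ± 0.065 (SE), or 1.29-fold (adjusted p = 0.0153), with ZT15 replicate 3 the highest. Ednrb, the endothelin B receptor, had -0.077, 0.20, 0.17 and 0.22 at ZT11 and -0.45, -0.23, -0.27 and -0.39 at ZT15 and fell by 1.38-fold, a difference of -0.46 ± 0.090 (adjusted p = 0.0255). Agtr1a, the angiotensin receptor, did not overlap either but had -0.27 ± 0.067, adjusted p = 0.136. The call was lost without ZT11 replicate 2 (adjusted p up to 0.0565) for Vegfa, ZT15 replicate 3 or ZT11 replicate 3 (adjusted p up to 0.0861) for Ace and ZT15 replicate 1, 3 or 4 or ZT11 replicate 2, 3 or 4 (adjusted p up to 0.101) for Ednrb. Of 12 endothelial markers none was called, with a median of 0.049 and -0.022 without ZT15 replicate 1; the part of cell content in these changes was not tested.

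Among 22 splicing factors and their kinases only Srsf5 was called. Srsf5, a splicing factor, had 0.10, 0.38, 0.39 and 0.39 at ZT11 and -0.14, -0.17, -0.28 and -0.36 at ZT15. All ZT15 values were below 0 and all ZT11 values above it, with ZT11 replicate 1 well below its group. The difference was -0.56 ± 0.084 (SE), or 1.47-fold (adjusted p = 0.00434). The only other measured member of the cold-inducible list, Cirbp, had -0.24 ± 0.072, adjusted p = 0.262. Ppp1r10, Zfp36l1 and Zc3h6 are described beside it for convenience, were placed here after their calls were seen, and form no tested group. Ppp1r10, the nuclear targeting subunit PNUTS of protein phosphatase 1, had 0.50, 0.57, 0.32 and 0.44 at ZT11 and -0.27, 0.017, -0.022 and -0.27 at ZT15 and fell by 1.51-fold, with -0.59 ± 0.093 (adjusted p = 0.00521). Zfp36l1, which binds AU-rich elements and speeds mRNA decay, had -0.35, -0.29, -0.20 and -0.37 at ZT11 and 0.063, 0.27, 0.010 and 0.23 at ZT15. It rose by 0.45 ± 0.061 (SE), or 1.36-fold (adjusted p = 0.00328), and its 2 probe sets gave 0.58 (adjusted p = 0.00308) and 0.31 (adjusted p = 0.178). Zc3h6, a zinc finger gene, fell by 1.34-fold, with values of -0.012, 0.22, 0.26 and 0.28 at ZT11 and -0.51, -0.16, -0.22 and -0.041 at ZT15 and -0.42 ± 0.080 (adjusted p = 0.0233). Here the probe sets disagreed, with -0.71 (adjusted p = 2.31e-05) in one and -0.13 (adjusted p = 0.901) in the other, and the call was lost without ZT15 replicate 1 or 3 or ZT11 replicate 2, 3 or 4 (adjusted p up to 0.104). In the splicing list, Clk2 had 0.19 ± 0.066, adjusted p = 0.35, Mbnl2 0.18 ± 0.064, adjusted p = 0.395 and Srsf10 0.18 ± 0.091, adjusted p = 0.65.

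Of the remaining large rises, Angptl7, a secreted angiopoietin-like protein, had -0.0082, -0.39, 0.0082 and 0.18 at ZT11 and 0.93, 0.37, 1.13 and 0.79 at ZT15. It rose by 0.86 ± 0.15 (SE), or 1.81-fold (adjusted p = 0.0122), with ZT11 replicate 2 and ZT15 replicate 2 the lowest of their groups. Lyve1, a hyaluronan receptor of lymphatic vessels and resident macrophages, had 0.11, 0.057, -0.22 and 0.032 at ZT11 and 0.32, 0.46, 0.85 and 0.58 at ZT15 and rose by 0.56 ± 0.10 (SE), or 1.47-fold (adjusted p = 0.0153). Fv1, a restriction factor against murine retroviruses, had -0.42, -0.18, -0.49 and -0.48 at ZT11 and 0.061, 0.071, 0.17 and 0.35 at ZT15 and rose by 0.56 ± 0.11 (SE), or 1.47-fold (adjusted p = 0.0225). Cited4, a coregulator that binds CBP and p300, had -0.24, -0.11, -0.37 and -0.47 at ZT11 and 0.32, 0.31, 0.033 and 0.30 at ZT15 and rose by 0.54 ± 0.10 (SE), or 1.45-fold (adjusted p = 0.0209), with ZT15 replicate 3 close to 0. Rnasek, ribonuclease κ, had -0.42, -0.25, -0.38 and -0.28 at ZT11 and 0.10, 0.14, 0.20 and 0.15 at ZT15, the tightest ZT15 group of these genes. It rose by 0.48 ± 0.092 (SE), or 1.40-fold (adjusted p = 0.0233), with an adjusted p of 0.0177 from the 8 arrays. P4ha1, a subunit of collagen prolyl hydroxylase that responds to low oxygen, had -0.44, -0.18, -0.34 and -0.22 at ZT11 and 0.33, 0.32, 0.014 and 0.058 at ZT15 and rose by 0.48 ± 0.090 (SE), or 1.39-fold (adjusted p = 0.0214). Dusp8, a phosphatase of stress-activated kinases, had -0.34, -0.24, -0.18 and -0.13 at ZT11 and 0.12, 0.36, 0.11 and 0.15 at ZT15 and rose by 0.41 ± 0.078 (SE), or 1.33-fold (adjusted p = 0.0233).

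The calls of these rises were lost as follows. Angptl7 lost it without ZT15 replicate 3 or ZT11 replicate 2 (adjusted p up to 0.0538), and Lyve1 without ZT15 replicate 3 or ZT11 replicate 3 (adjusted p up to 0.0961). Fv1 lost it without ZT15 replicate 3 or 4 or ZT11 replicate 3 or 4 (adjusted p up to 0.101), Cited4 without ZT15 replicate 1, 2 or 4 or ZT11 replicate 3 or 4 (adjusted p up to 0.0963) and Rnasek without ZT15 replicate 2, 3 or 4 or ZT11 replicate 1, 3 or 4 (adjusted p up to 0.101). P4ha1 lost it without ZT15 replicate 1 or 2 or ZT11 replicate 1 or 3 (adjusted p up to 0.0963), and Dusp8 without ZT15 replicate 2 or 4 or ZT11 replicate 1, 2 or 3 (adjusted p up to 0.0929).

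Among the remaining falls, Klhl38, a kelch protein of striated muscle, had 0.23, 0.12, 0.40 and 0.41 at ZT11 and -0.37, -0.12, -0.063 and -0.14 at ZT15. It fell by 1.38-fold, with -0.46 ± 0.078 (adjusted p = 0.0109), and its 2 probe sets gave -0.75 and -0.18. It was the only one of 27 autophagy and atrophy genes to pass. The ubiquitin ligases Fbxo32 (atrogin-1) and Trim63 (MuRF1) had -0.43 ± 0.094, adjusted p = 0.0638 and -0.28 ± 0.088, adjusted p = 0.284. Apex2, a DNA repair endonuclease, had 0.16, 0.35, 0.50 and 0.43 at ZT11 and 0.059, -0.21, -0.12 and -0.13 at ZT15 and fell by 1.37-fold, with -0.46 ± 0.090 (adjusted p = 0.0291). Plscr2, of the phospholipid scramblase family, had 0.24, 0.32, 0.63 and 0.41 at ZT11 and -0.011, -0.15, 0.10 and -0.15 at ZT15 and fell by 1.36-fold, with -0.45 ± 0.093 (adjusted p = 0.0461). Gstt2, a glutathione transferase, had 0.28, 0.43, 0.56 and 0.56 at ZT11 and -0.070, 0.14, 0.13 and -0.14 at ZT15. It fell by 1.36-fold, with -0.44 ± 0.072 (adjusted p = 0.00706), and held its call in each fit without 1 array.

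Fam214a fell with values of 0.27, 0.29, 0.50 and 0.52 at ZT11 and -0.037, -0.058, 0.0092 and -0.0092 at ZT15, near 0 on every ZT15 array (-0.42 ± 0.083, adjusted p = 0.0332). Akap5, which anchors protein kinase A and calcineurin, had 0.020, 0.061, 0.24 and 0.080 at ZT11 and -0.14, -0.28, -0.27 and -0.29 at ZT15 (-0.34 ± 0.071, adjusted p = 0.0417). Osbp, an oxysterol-binding lipid transfer protein, had 0.050, 0.27, 0.17 and 0.22 at ZT11 and -0.26, -0.12, -0.10 and -0.14 at ZT15 (-0.33 ± 0.061, adjusted p = 0.0174). ZT15 replicate 1 was the lowest Osbp value and the highest Akap5 value. Aasdh (-0.36 ± 0.065, adjusted p = 0.0174) and Dip2c (-0.35 ± 0.060, adjusted p = 0.0126) fell as well. In Dip2c, ZT11 replicate 1 came close to the ZT15 values, at -0.20 against a highest value of -0.26 at ZT15. Calls were lost without ZT11 replicate 3 (adjusted p up to 0.0718) for Klhl38, ZT15 replicate 2, 3 or 4 or ZT11 replicate 2, 3 or 4 (adjusted p up to 0.141) for Apex2 and ZT15 replicate 1, 2 or 4 or ZT11 replicate 2, 3 or 4 (adjusted p up to 0.193) for Plscr2. They were lost without ZT15 replicate 1, 2, 3 or 4 or ZT11 replicate 3 or 4 (adjusted p up to 0.141) for Fam214a, ZT15 replicate 2, 3 or 4 or ZT11 replicate 2, 3 or 4 (adjusted p up to 0.185) for Akap5 and ZT15 replicate 1 or ZT11 replicate 2, 3 or 4 (adjusted p up to 0.0822) for Osbp. For Aasdh this was so without ZT15 replicate 1, 2 or 3 or ZT11 replicate 3 or 4 (adjusted p up to 0.0963), and for Dip2c without ZT15 replicate 3 or ZT11 replicate 3 or 4 (adjusted p up to 0.0796).

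The other called genes lie outside the rule for named genes and are given because the counts include them, having been chosen after their values were seen. Atxn2, the RNA-binding protein ataxin-2, rose with 0.36 ± 0.054, adjusted p = 0.00434 and -0.29, -0.22, -0.35 and -0.34 at ZT11 and 0.16, 0.025, -0.084 and 0.14 at ZT15. Socs7, of the suppressors of cytokine signalling, had 0.39 ± 0.079, adjusted p = 0.0371, Efnb1 (ephrin-B1) 0.36 ± 0.067, adjusted p = 0.0209 and Eng (endoglin) 0.33 ± 0.069, adjusted p = 0.0467. Fam160a1 had 0.32 ± 0.064, adjusted p = 0.035, Zbtb3 0.27 ± 0.054, adjusted p = 0.0363 and Anks4b 0.23 ± 0.042, adjusted p = 0.0209. Cdh2, the N-cadherin of the intercalated disc, fell with -0.28 ± 0.049, adjusted p = 0.0122. Its probe sets gave -0.36 (adjusted p = 0.0146) and -0.21 (adjusted p = 0.318). Gabpa, an Ets factor for mitochondrial genes, fell with -0.27 ± 0.053, adjusted p = 0.0332. The largest fall of all was in the predicted gene Gm12295, with 0.82, 0.48, 0.54 and 0.72 at ZT11 and -0.51, -0.28, -0.067 and 0.12 at ZT15 and -0.82 ± 0.12, adjusted p = 0.00434. The transcripts 9530057J20Rik (-0.59 ± 0.10, adjusted p = 0.00672) and Gm8579 (-0.26 ± 0.054, adjusted p = 0.0454) fell too. In all of these except Atxn2, Gm12295 and 9530057J20Rik the call was lost without at least 1 of the 8 arrays, with adjusted p-values up to 0.15.

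Of 36 gene lists 26 had no called member. Since 0.203% of all genes were called, a list without a call says little about its genes. Genes that answer to glucocorticoids, which peak at dusk in mice, had 0 of 28 called and a median of -0.038. Klf9 (-0.29 ± 0.076, adjusted p = 0.152), Klf15 (-0.35 ± 0.11, adjusted p = 0.282) and Hsd11b1 (0.29 ± 0.088, adjusted p = 0.265) came closest, and Klf7 (0.15 ± 0.049, adjusted p = 0.291) and Klf3 (0.24 ± 0.091, adjusted p = 0.448) were the next of the Kruppel-like factors. An unadjusted p below 0.05 was found in 5 of the 28 with a lower mean and 3 with a higher one. Of 13 Kruppel-like factors, a list that shares Klf9 and Klf15, it was found in 4 and 3. Over all genes these shares were 3.43% and 4.58%. Of 23 immediate early genes none was called. Ier3 had 0.59 ± 0.14, adjusted p = 0.113, and was called without ZT15 replicate 1 (adjusted p = 0.0491). Btg2 had -0.36 ± 0.11, adjusted p = 0.284, Csrnp1 -0.23 ± 0.092, adjusted p = 0.476 and Jund 0.21 ± 0.066, adjusted p = 0.285, the last with probe sets at 0.40 (adjusted p = 0.021) and 0.019 (adjusted p = 0.988). In the MAP kinase feedback list of 15, Dusp8 was the only call, and Dusp1 (-0.31 ± 0.15, adjusted p = 0.638), Spry2 (0.16 ± 0.077, adjusted p = 0.639) and Dusp16 (0.19 ± 0.10, adjusted p = 0.655) followed.

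No gene of the fuel lists passed the test, where 0.203% of all genes did. Of 21 genes that respond to PPAR, 5 had an unadjusted p below 0.05 and a lower mean, and 1 a higher. Over all genes these shares were 3.43% and 4.58%. Ucp3, the mitochondrial uncoupling protein, had 0.088, -0.051, 0.31 and 0.80 at ZT11 and -0.44, -0.39, -0.61 and -0.47 at ZT15, a difference of -0.76 ± 0.24, adjusted p = 0.285. Cpt1a, which admits fatty acids to mitochondria, had -0.43 ± 0.12, adjusted p = 0.228, Hadha -0.14 ± 0.045, adjusted p = 0.316 and Ppargc1a -0.20 ± 0.090, adjusted p = 0.577. Among 23 genes of glucose uptake and glycolysis, Slc16a1 (0.19 ± 0.072, adjusted p = 0.448), Pfkfb3 (-0.20 ± 0.078, adjusted p = 0.475), Tpi1 (-0.13 ± 0.061, adjusted p = 0.602) and Slc2a4 (-0.15 ± 0.083, adjusted p = 0.704) had the smallest p. Of 24 triglyceride genes, Agpat1 had 0.26 ± 0.062, adjusted p = 0.113, Mgll 0.24 ± 0.076, adjusted p = 0.285, Gpam -0.17 ± 0.068, adjusted p = 0.501 and Lipe -0.19 ± 0.083, adjusted p = 0.571. Srebf1 (-0.17 ± 0.059, adjusted p = 0.353), Insig1 (-0.22 ± 0.11, adjusted p = 0.661), Dhcr7 (-0.12 ± 0.080, adjusted p = 0.78) and Fdft1 (-0.10 ± 0.067, adjusted p = 0.808) led 18 genes of sterol and fatty acid synthesis. In insulin and nutrient signalling, the insulin receptor Insr had -0.19 ± 0.050, adjusted p = 0.149, Eif4ebp1 -0.25 ± 0.070, adjusted p = 0.219, Pik3ip1 -0.31 ± 0.11, adjusted p = 0.378 and Igf1 0.22 ± 0.084, adjusted p = 0.446. The amino acid transporter Slc38a2 had 0.26 ± 0.086, adjusted p = 0.325, the glutathione transferase Gsta3 0.35 ± 0.086, adjusted p = 0.129 and Gpx1 0.22 ± 0.083, adjusted p = 0.438.

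The contractile and electrical machinery showed no call, where 0.203% of all genes were called. Of 28 sarcomere and Z-disc genes 6 had an unadjusted p below 0.05 and a lower mean and 2 a higher one. The shares over all genes were 3.43% and 4.58%. The median of the list was -0.054. Tcap (telethonin) had -0.49 ± 0.13, adjusted p = 0.142, Lmod2 -0.27 ± 0.066, adjusted p = 0.129, Myom2 -0.22 ± 0.070, adjusted p = 0.303 and Xirp1 0.22 ± 0.082, adjusted p = 0.402. The L-type calcium channel gene Cacna1c had -0.24 ± 0.062, adjusted p = 0.152, the phosphodiesterase Pde3a -0.25 ± 0.081, adjusted p = 0.323 and the ryanodine receptor Ryr2 -0.094 ± 0.039, adjusted p = 0.514. Among 23 ion channels and connexins the potassium channel Kcnd2 had -0.27 ± 0.082, adjusted p = 0.262, and among the adrenergic genes Adra1b had -0.18 ± 0.072, adjusted p = 0.461. Nfatc3 (0.30 ± 0.086, adjusted p = 0.218) and Ankrd1 (-0.43 ± 0.19, adjusted p = 0.554) represent 24 genes of cardiac stress and growth. None of 52 oxidative phosphorylation genes had an unadjusted p below 0.05, against 8.01% of all genes. Ndufa2 (-0.19 ± 0.10, adjusted p = 0.699) came closest. Of 43 ribosomal protein genes, Rps16 had 0.39 ± 0.11, adjusted p = 0.237 and Rpl38 -0.27 ± 0.13, adjusted p = 0.618.

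Low-oxygen and matrix genes gave 1 call. In the hypoxia list of 21, P4ha1 was called, and Egln3 (0.70 ± 0.23, adjusted p = 0.328), Adm (0.38 ± 0.094, adjusted p = 0.124) and P4ha2 (0.19 ± 0.059, adjusted p = 0.265) also had higher means. The list did not rise as a whole: 10 of the 21 had a higher mean, against 54.0% of all genes, and the median was -0.024. An unadjusted p below 0.05 was found in 5 with a higher mean and 2 with a lower one. The shares over all genes were 4.58% and 3.43%. Without ZT15 replicate 1 this list had 0 calls. Fn1 (0.21 ± 0.077, adjusted p = 0.395) and Col1a2 (0.14 ± 0.055, adjusted p = 0.482) led 26 matrix genes, and Adamts5 (-0.22 ± 0.062, adjusted p = 0.219) and Timp4 (-0.39 ± 0.13, adjusted p = 0.353) led 21 metalloproteinases and inhibitors. Among 27 interferon and inflammatory genes 5 had an unadjusted p below 0.05 and a lower mean, where 3.43% of all genes did. Cxcl9 had 0.22, 0.30, 0.995 and 0.19 at ZT11 and 0.026, 0.0089, -0.35 and -0.23 at ZT15, a difference of -0.56 ± 0.16, adjusted p = 0.219, with ZT11 replicate 3 far above its group. Iigp1 had -0.57 ± 0.22, adjusted p = 0.452 and Nfkbia -0.36 ± 0.14, adjusted p = 0.467. The acute phase genes Lrg1 (0.27 ± 0.075, adjusted p = 0.201) and Lcn2 (0.37 ± 0.13, adjusted p = 0.353) and the cell cycle genes Mdm2 (0.21 ± 0.10, adjusted p = 0.609) and Top2a (0.17 ± 0.080, adjusted p = 0.618) did not pass.

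Some markers of other cells had higher means at ZT15. Of 12 macrophage markers Lyve1 was called, 6 had an unadjusted p below 0.05, all higher, and all 12 had a higher mean at ZT15. Over all genes 4.58% had such a p with a higher mean, and 54.0% had a higher mean. Their mean on each array was -0.041, 0.038, -0.043 and -0.055 at ZT11 and 0.079, 0.12, 0.27 and 0.17 at ZT15, without overlap. The median difference was 0.15 with ZT15 replicate 1 and 0.15 without it. Folr2 had 0.26 ± 0.093, adjusted p = 0.397, C1qa 0.23 ± 0.084, adjusted p = 0.398 and Adgre1 (F4/80) 0.23 ± 0.10, adjusted p = 0.514, while Cd68 had 0.025 ± 0.10 (adjusted p = 0.984). Their part in the rises was not tested.

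Among the 8 arrays, platelet genes were highest on ZT15 replicate 1. The mean of 17 platelet and megakaryocyte genes was -0.18, -0.053, -0.093 and -0.12 at ZT11 and 0.80, 0.056, -0.030 and 0.21 at ZT15. None was called, although 11 had an unadjusted p below 0.05 and a higher mean, where 4.58% of all genes did. The median difference was 0.30. Without ZT15 replicate 1 the median was 0.16 and 3 had such a p. Ppbp, the most variable, had -0.61, -0.040, -0.14 and -0.60 at ZT11 and 3.33, 0.040, 0.16 and 1.32 at ZT15. Its ZT15 arrays were above its ZT11 arrays, with replicates 1 and 4 far above the rest, and the difference of 1.56 ± 0.50 had an adjusted p of 0.288. Over the day its means from ZT03 to ZT23 were -0.21, -0.36, -0.35, 1.21, 1.36 and 1.60, so they were also high at the 2 later night times, with SDs of 0.787 at ZT19 and 0.643 at ZT23 against 1.52 at ZT15. Gng11 (0.27 ± 0.082, adjusted p = 0.256), F5 (0.52 ± 0.16, adjusted p = 0.285) and Gp6 (0.39 ± 0.15, adjusted p = 0.438) followed. The 2 measured red cell genes, Slc4a1 and Epb42, had a mean of 0.32 in ZT15 replicate 1 and between -0.063 and 0.043 on the other 7 arrays. The defining hemoglobin genes were not analysed here, and whether blood in the tissue took part in any other difference was not tested.

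The ventricular list had no call of 12, with a median of -0.044. Only 1 of the 12 had a higher mean at ZT15, against 54.0% of all genes. That gene was Nkx2-5 (0.24 ± 0.080, adjusted p = 0.34), which also had the smallest p. Atrial genes had a median of 0.14 over 8, with Nr2f2 at 0.20 ± 0.062, adjusted p = 0.265 and Myl7 at 0.27 ± 0.23, adjusted p = 0.869. Fibroblast genes had 0.13 over 12, with Pi16 at 0.32 ± 0.10, adjusted p = 0.295 and Pdgfra at 0.21 ± 0.085, adjusted p = 0.483. Of these 12, 10 had a higher mean, and 4 had an unadjusted p below 0.05 with a higher mean, where 4.58% of all genes did. Without ZT15 replicate 1 the fibroblast median was 0.14 and 3 had such a p. The lists for smooth muscle and pericytes (0.013), neutrophils (0.013), lymphocytes (-0.0010), mesothelium (0.0071), thymus (-0.012), nerve and Schwann cells (0.054), fat (-0.0093), lung (0.0080) and skeletal muscle (-0.034) had no call, with their median differences in parentheses. Without ZT15 replicate 1 these 9 medians lay between -0.030 and 0.063. Since the values are centred, a marker that is absent cannot be told from one that is steady.

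**Figure D4:**
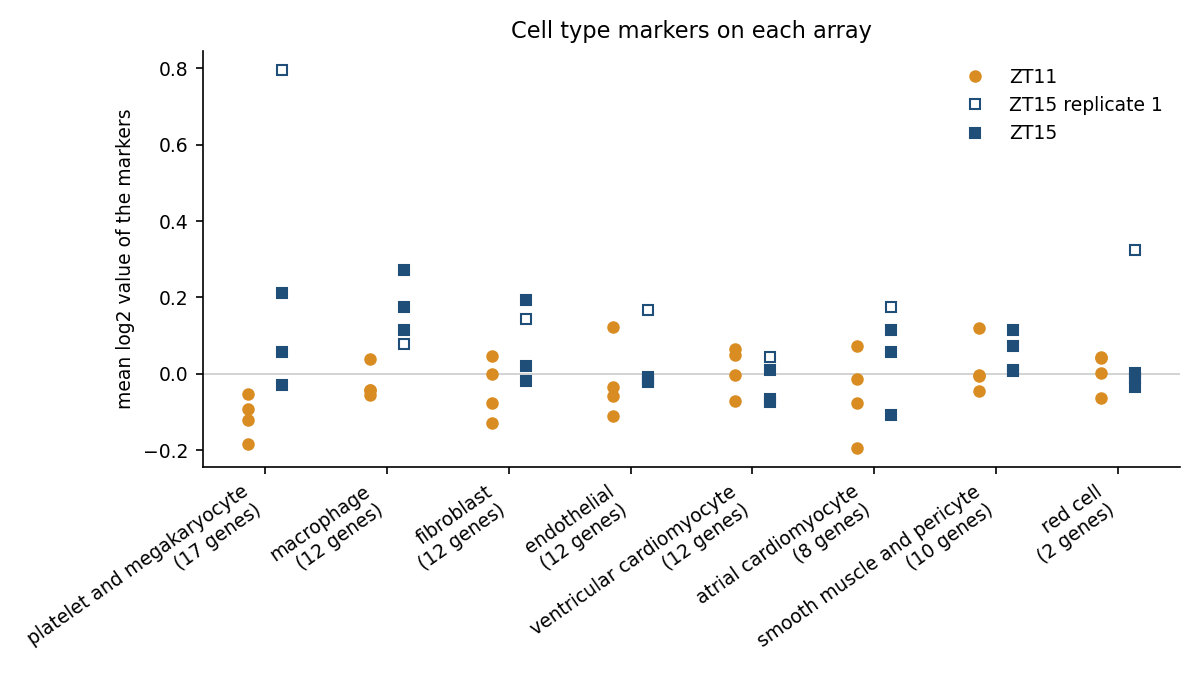
Mean log2 value of the measured markers of 8 cell types on each array at ZT11 (circles) and ZT15 (squares). The open square is ZT15 replicate 1. It stands at 0.80 for the platelet list and 0.32 for the red cell list, while the 4 macrophage means at ZT15, from 0.079 to 0.27, lie above the 4 at ZT11.

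The step was set against the other transition of the light cycle, from ZT23 to ZT03, which shares no array with it. Of the 25 genes that rose at lights-off, 19 had a lower mean after lights-on than before, where 49.6% of all genes did, and the difference between the steps was called in 19 of the 25. Of the 20 that fell, 17 had a higher mean after lights-on, against 50.4% of all genes, and the difference was called in 18. These genes were chosen for a large lights-off step, which is part of the difference between the steps, so the counts of 19 and 18 describe them and test nothing. Over all genes the steps differed in 290 (1.31%), and lights-on itself changed 152 (0.685%), of which 8 were also called at lights-off. Nfil3 was the only gene to rise at lights-off and fall at lights-on (-0.36, adjusted p = 0.0233). The 7 genes that fell and then rose were Osbp (0.42, adjusted p = 0.00138), Plscr2 (0.69, adjusted p = 0.000905), Klhl38 (0.46, adjusted p = 0.00616), Srsf5 (0.45, adjusted p = 0.0112), Fam214a (0.45, adjusted p = 0.0117), Apex2 (0.39, adjusted p = 0.045) and Zc3h6 (0.35, adjusted p = 0.0469).

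The 5 largest differences between the steps, lights-off minus lights-on, were in Ppbp, 3.38 ± 0.70 (adjusted p = 0.0144), Nr1d1, -2.14 ± 0.20 (adjusted p = 1.21e-05), Txnip, -1.63 ± 0.32 (adjusted p = 0.00913), Ucp3, -1.60 ± 0.34 (adjusted p = 0.0168), and Hspa1b, 1.49 ± 0.25 (adjusted p = 0.00318). Txnip, which restrains glucose uptake, had -0.35 ± 0.22, adjusted p = 0.779 at lights-off and 1.28 at lights-on (adjusted p = 0.0069). Nr1d1 had 1.59 at lights-on (adjusted p = 5.26e-06). The heat shock genes were tested singly for a difference between the transitions, with 9 of 25 called, against 1.31% of all genes. The lights-off step is part of this difference, so the count of 9 describes the list and tests nothing. Of the 5 called at lights-off, none was called at lights-on itself, with adjusted p-values from 0.123 for Dnajb1 to 0.389 for Hsph1 in the limma fit. Hspa1a had a difference of 1.30 ± 0.15 (adjusted p = 0.000108), Dnajb1 0.71 ± 0.11 (adjusted p = 0.00158), Hsph1 0.80 ± 0.13 (adjusted p = 0.003) and Hsp90aa1 0.74 ± 0.14 (adjusted p = 0.00934). Ppp1r3b had 0.80 ± 0.11 (adjusted p = 0.000299) and Ppp1r3c 0.91 ± 0.18 (adjusted p = 0.01). Cry1 had 0.90 ± 0.11 (adjusted p = 0.000185). For Ciart (-0.61 ± 0.16 (adjusted p = 0.0567)), Vegfa (0.22 ± 0.073 (adjusted p = 0.161)), Rnasek (0.31 ± 0.13 (adjusted p = 0.313)) and Per1 (-0.81 ± 0.36 (adjusted p = 0.36)) the difference between the steps was not called.

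**Figure D5:**
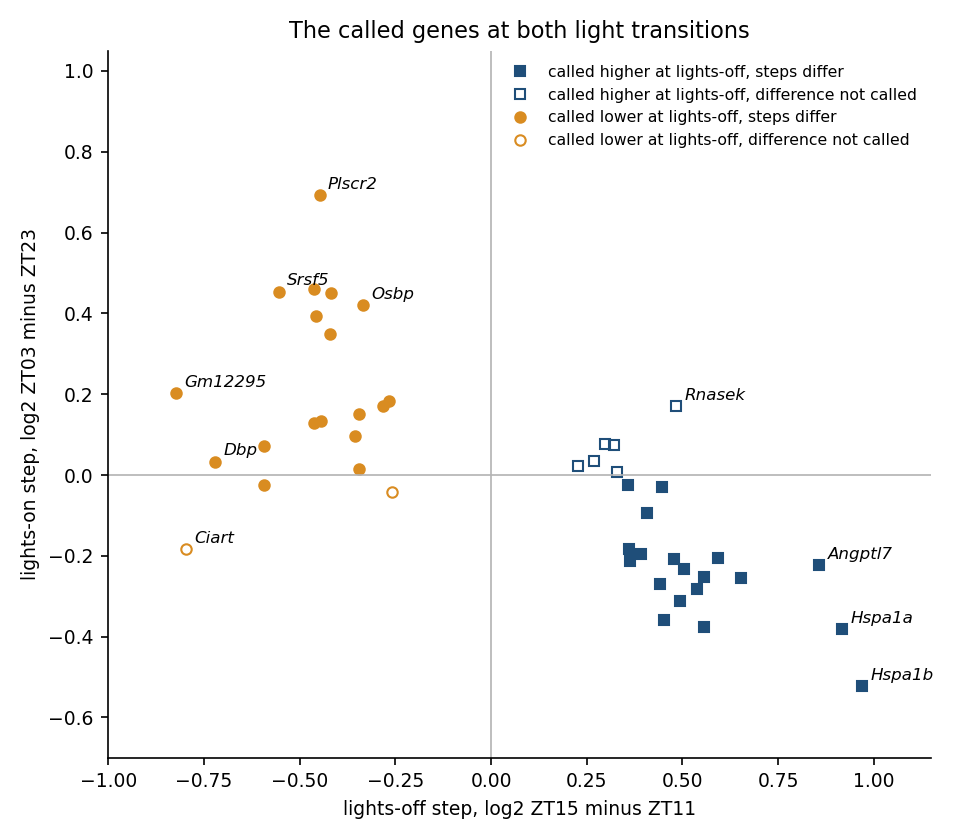
Lights-off step (log2 ZT15 minus ZT11, horizontal) against lights-on step (log2 ZT03 minus ZT23, vertical) for the 45 genes called at lights-off. Filled marks are genes whose steps differ at an adjusted p below 0.05. Most squares lie below 0 and most circles above it, and the 8 genes with open marks include Ciart and Rnasek.

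In its place in the day, the step was often the main one for these genes. Of the 25 that rose, 18 had their highest mean at ZT15 and 15 their lowest at ZT11, and the step covered a median of 93.9% of the range of the 6 means. Of the 20 that fell, 13 had their highest mean at ZT11 and 8 their lowest at ZT15, with a median of 80.1%. Since the genes were called on this very step, these shares describe them and test nothing. Hspa1a had means of -0.17, -0.15, -0.33, 0.59, 0.31 and 0.21 from ZT03 to ZT23, highest at ZT15 and still above 0 at the end of the night. Ace had -0.21, -0.13, 0.059, 0.42, 0.086 and 0.00072, a peak at ZT15 alone. Zfp36l1 had 0.060, -0.17, -0.30, 0.14, 0.0090 and 0.089 and Ppp1r10 -0.0097, -0.13, 0.46, -0.14, 0.053 and 0.016, its highest value at ZT11 and its lowest at ZT15. Srsf5 had 0.25, 0.49, 0.32, -0.24, -0.42 and -0.20, high through the light phase and low through the dark.

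The arrays of ZT19 and ZT07, whose values entered the choice of these genes only through the shared estimate of spread, gave a further reading of day against night. At ZT19 24 of the 25 genes that rose had a higher mean than at ZT07, against 48.2% of all genes, and 14 were called higher, against 0.888%. Of the 20 that fell, 18 had a lower mean, against 51.8%, and 10 were called lower, against 0.703%. A small shared estimate of spread favours a call in both tests, so the counts of 14 and 10 describe these genes and test nothing. Lyve1 (0.77, adjusted p = 0.000277), Ppp1r3b (0.55, adjusted p = 0.000484), Hspa1a (0.46, adjusted p = 0.0329) and Hsph1 (0.50, adjusted p = 0.00713) were higher at ZT19. Srsf5 (-0.91, adjusted p = 2.72e-06), Dbp (-1.07, adjusted p = 1.1e-05) and Ciart (-0.79, adjusted p = 0.000742) were lower. Vegfa (0.011, adjusted p = 0.969), Rnasek (0.070, adjusted p = 0.837), Ednrb (-0.085, adjusted p = 0.774) and Aasdh (0.0043, adjusted p = 0.992) had no called difference between those times.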

How the data were processed

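RNA of mouse hearts, as biotin-labelled cRNA from 500 ng of total RNA, was hybridised to Affymetrix arrays, 1 array per sample, per the labels' protocols. The deposited table holds 1 value per probe set and array, read here as log2; the base of the logarithm and its direction are not stated. How probe sets were summarised and normalised, and with which software, is not given in the sources used here. The deposited log2 values have a median of 0 (within 5e-07) for each probe set over the 24 arrays, so no level is kept and a planned filter on dim probe sets was replaced by a test of protein-coding genes without the odorant, vomeronasal and taste receptor families.

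Of 34351 probe sets, 23521 named 1 gene in the platform annotation, 1814 several and 9016 none. The mean over probe sets was taken for 22180 genes, 1082 of which had several. A linear model of 6 time means over 24 arrays (18 residual degrees of freedom, limma 3.58.1 in R 4.3.3) gave ZT15 minus ZT11 with a moderated test and Benjamini-Hochberg adjustment over all genes, called at an adjusted p below 0.05. The fit was checked on simulated data with known changes in a set of genes. The simulated noise was independent between arrays, and each gene had the same SD on all of them. An array that stands apart, like ZT15 replicate 1, was not part of that check. The 8 arrays alone left 6 degrees of freedom. Folds are 2 to the power of the difference.

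The members, gene lists and marker lists were chosen with earlier results of these data known. Genes were named by rule: all measured clock genes, the 15 largest called rises and falls without predicted genes, the 4 smallest p in every other list, and the 5 largest called differences between the light transitions. Promoters came from RefSeq, GRCm38.p6. The number of arrays, 4 per group, limits the precision.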

Additional observations from a re-analysis of the deposited data

Results flagged for a closer look

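Single arrays lay far from the other 3 of their group in 26 of the 458 gene and group pairs examined. Chance gives about 1 in 20 groups, so the total is near what chance gives. Of the 26, 9 were in ZT15 replicate 1. On that array the log2 values set apart were -0.14 for Igf1, -0.098 for Th, 0.16 for Rpl22, -0.22 for Hadha, 0.24 for Ndufa2, -0.59 for Ppargc1a, -0.14 for Akap5, 0.024 for Nr1d2 and 0.060 for Iigp1. On ZT15 replicate 2 they were 0.48 for Dnajb1 and 0.36 for Dusp8. ZT15 replicate 3 had 0.033 for Cited4, 0.55 for Ace, 0.25 for Lrg1 and -0.36 for Gabpa, and ZT15 replicate 4 had 0.33 for Kcnj8. At ZT11, replicate 1 had 0.044 for Efnb1, 0.0036 for Cidec, -0.012 for Notch3, -0.033 for Pygb and 0.10 for Srsf5. Replicate 2 had -0.49 for Hsp90aa1 and -0.16 for Ppargc1a, replicate 3 had 0.995 for Cxcl9, and replicate 4 had 0.25 for Myl7 and -0.28 for Folr2.

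The steps at lights-off and lights-on differed, in the limma test of the difference itself, by 3.38 in Ppbp, -2.14 in Nr1d1, -1.63 in Txnip, -1.60 in Ucp3 and 1.49 in Hspa1b. These are the 5 largest of the called differences between the transitions.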

How the results depend on the processing

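The counts of 25 genes higher and 20 lower rest on the shared spread of 24 arrays and on single arrays. The 8 arrays alone gave 5 and 0, where fewer arrays estimate the spread; with array weights they gave 5 and 2, and without ZT15 replicate 1 they gave 6 and 0, both alternatives chosen after seeing the data. With 1 array left out of the 24-array fit the counts ran from 8 to 29 higher and from 7 to 46 lower, and the genes whose steps at lights-off and lights-on differ from 199 to 436, against 290; the cause was not tested. On the 8 arrays the calls in lists were 2 for heat shock and 0 for clock repressors, D-box factors, MAP kinase feedback, cold-inducible, splicing, autophagy, vascular, hypoxia and macrophage genes. Without ZT15 replicate 1 they were 1 for immediate early and 0 for hypoxia genes. The largest-SD probe set turned Tef to -0.025. Leaving out 1 array turned uncalled values: Slc4a1 from -0.064 to 0.15, Msln from -0.0033 to 0.075, Tef from -0.041 to 0.087, Cd8a from -0.015 to 0.060, Sftpd from -0.031 to 0.043, Scgb3a2 from -0.010 to 0.033, Rora from -0.022 to 0.058, Ms4a1 from -0.029 to 0.0089, Hlf from -0.091 to 0.030, Bhlhe40 from -0.094 to 0.048 and Kcnj8 from -0.19 to 0.0063. In the 8-array fit without ZT15 replicate 1, Slc4a1 was -0.064, Cd8a -0.015, Scgb3a2 -0.010, Hlf 0.030, Bhlhe40 0.048 and Kcnj8 0.0063. Same-numbered arrays of ZT11 and ZT15 correlated at -0.079, 0.036, -0.029 and -0.11 in their deviations, and 1 of 4 correlated best with its own number, so the numbers do not pair them; with the replicate block the counts were 25 and 20, and 5 of the 45 genes lost their call. Array weights, a robust spread, median centring, quantile normalization and protein-coding genes without the odorant, vomeronasal and taste receptor families gave 24 to 36 higher and 18 to 30 lower. Signal over background is unknown, so dim genes could not be set aside.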
